A study of Mus musculus with 16 samples.

Results

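The genes described here are 8 heat shock genes (Hspa1a, Hspa1b, Hspa8, Hspb1, Dnajb1, Hsph1, Hsp90aa1 and Hsp90ab1) and 2 cold-inducible genes (Cirbp and Rbm3). They are 10 of the 24060 genes in the tables, chosen by symbol alone, and all 10 had a value in each of the 16 libraries. Every mouse was an Aldh1l1CreERT2-RiboTag mouse on C57BL/6J, 3 months old and treated with tamoxifen, so that a hemagglutinin-tagged ribosomal protein was made in cells in which the Aldh1l1 promoter drives Cre, which are astrocytes. RNA came from the somatosensory cortex, either bound to the tagged ribosomes and immunoprecipitated (IP) or from the cleared lysate of all cell types (INPUT). Naïve mice stayed in the home cage, and stressed mice swam in a bucket of water for 20 min and then rested in the home cage for 90 min. There were 4 libraries each of naïve IP (replicates 2, 8, 11 and 13), stress IP (4, 5, 6 and 15), naïve INPUT (3, 7, 14 and 16) and stress INPUT (1, 9, 10 and 12). The paper's methods name 4 males and 4 females, and the INPUT was a part of the lysate used for the IP. IP and INPUT libraries therefore share mice, but the labels do not pair them. Water temperature and body temperature were not given in the sources used here.

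A cell whose proteins begin to unfold, for instance in heat, activates the transcription factor Hsf1, which binds heat shock elements, inverted repeats of the letters GAA and TTC, upstream of chaperone genes. The Hsp70 proteins hold unfolded stretches, the Hsp40 proteins bring them clients, the Hsp110 proteins exchange their nucleotide, the Hsp90 proteins finish the folding of kinases and steroid receptors, and the small heat shock proteins keep unfolded chains from clumping. Cirbp and Rbm3 act the other way around. They encode RNA-binding proteins whose mRNA rises when the temperature of a mammalian cell falls slightly, so that the 10 genes cover both directions of a temperature change.

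Promoter windows were searched for the letters of the heat shock element, and binding by Hsf1 was not tested. RefSeq windows on GRCm38.p6, from 250 bases before to 50 bases after the annotated start, were matched for 6 of the 10 genes (Hspa1a, Hspa1b, Hspb1, Dnajb1, Hsph1 and Cirbp). A heat shock element of 2 units was searched as GAANNTTC or TTCNNGAA and one of 3 units as GAANNTTCNNGAA or TTCNNGAANNTTC, so that each 3-unit match also holds 2-unit matches, on both strands. Of 32851 windows in the table, 15.1% held the 2-unit form and 0.603% the 3-unit form. The stretches that hold the element, with GAA and TTC in capitals, are the following, and the small heat shock gene Hspb1 holds 2 of them.
Hspa1a, chr17:34972217-34972276, minus strand, −120 to −61: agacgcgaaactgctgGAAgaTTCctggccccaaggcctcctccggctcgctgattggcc
Hspa1b, chr17:34959299-34959358, minus strand, −120 to −61: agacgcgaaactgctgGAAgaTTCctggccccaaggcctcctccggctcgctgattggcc
Hspb1, chr5:135887792-135887851, plus strand, −127 to −68: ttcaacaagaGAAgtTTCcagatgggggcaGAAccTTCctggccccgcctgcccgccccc
Hsph1, chr5:149636345-149636374, minus strand, −38 to −9: aatctTTCtcGAAggctcgagaagaaggaa
Hsph1, chr5:149636287-149636316, minus strand, 21 to 50: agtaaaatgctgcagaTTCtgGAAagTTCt

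The printed stretches of Hspa1a and Hspa1b were the same, and their whole windows were identical in 296 of 300 bases. Hsph1 was the only one of the 6 matched genes with a 3-unit match, which lay after the annotated start and not upstream of it. Neither of the windows of Dnajb1 held a 2-unit match, which says only that these letters are not in these windows. The mild cold response element (TCCCCGCC, or GGCGGGGA when read on the other strand), described upstream of Cirbp, was present in 5.38% of all windows. It was found in 1 of the Cirbp windows, in both Hspa1 windows and in 1 of the Dnajb1 windows. Its letters are in capitals in the stretches of Cirbp and Hspa1a below.
Cirbp, chr10:80167589-80167618, plus strand, −250 to −221: ctgTCCCCGCCtcctagtcgctagcgggcg
Hspa1a, chr17:34972277-34972306, minus strand, −150 to −121: attactcaagggaGGCGGGGAagctccacc

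Values are CPM, the reads of a gene per 1000000 reads on all genes of a library. Libraries held 16392876 to 25814364 reads on genes, so that 3 reads were worth at most 0.183 CPM. The fractions were as labeled: the summed level of 7 astrocyte markers was 79926 to 91763 CPM in IP and 4483 to 5403 in INPUT, and that of 7 neuron markers was 493 to 797 CPM in IP and 10817 to 12981 in INPUT. Reads were assigned only where they mapped uniquely, and this limits some of the genes. Of the stretches of 69 bases (the read length) in the Hspa1a transcripts, 37.2% occur in no other gene, and 54.0% also occur in Hspa1b. For Hspa1b 42.7% are unique, for Hspb1 53.0%, for Hsp90aa1 56.2%, for Hspa8 65.4%, for Rbm3 92.0%, for Hsp90ab1 98.9%, and for Dnajb1, Hsph1 and Cirbp 100%. The levels of Hspa1a, Hspa1b, Hspb1, Hsp90aa1 and Hspa8 are therefore uncertain, and so is the division of reads between Hspa1a and Hspa1b.

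The basal order of the genes came out alike in both fractions except for Cirbp and Rbm3. Lengths were the union of all annotated exons of a gene (GENCODE M21, GRCm38). For Hspa8 this was 4301 bases in 3 blocks, and for Hsp90ab1 2999 bases in 9. Reads were counted on RefSeq genes, so that levels and order depend on the lengths chosen. Per kb of exon, the constitutive Hsp90ab1 was highest in naïve IP at 283 CPM per kb. The constitutive Hspa8 came next at 173 and the inducible Hsp90aa1 at 32.0. Cirbp followed at 9.75 CPM per kb, Hsph1 at 7.22, Dnajb1 at 4.22 and Rbm3 at 0.880. The lowest measured levels in naïve IP were those of the inducible genes Hspa1a at 0.501 CPM per kb, Hspa1b at 0.358 and Hspb1 at 0.321. They were not corrected for the share of unique stretches, 37.2%, 42.7% and 53.0% in these genes against 92.0% in Rbm3. The order among these genes and Rbm3 is therefore uncertain. The ranges over 4 libraries overlapped between Rbm3 and Hspa1a (0.767 to 1.09 and 0.248 to 0.841) and among Hspa1a, Hspa1b and Hspb1, and the other neighbors in this order did not overlap. In naïve INPUT the levels were 475 CPM per kb for Hsp90ab1, 279 for Hspa8, 102 for Hsp90aa1, 37.6 for Hsph1, 17.0 for Dnajb1 and 13.9 for Cirbp. Hspa1a and Hspa1b were at 1.92 each, Rbm3 at 1.82 and Hspb1 at 1.29, and these 4 overlapped, as Dnajb1 and Cirbp did.

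**Figure D1:**
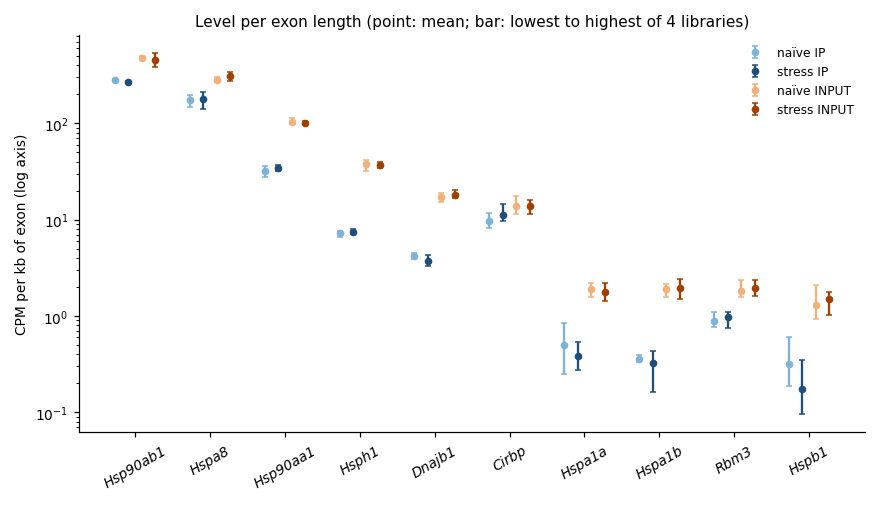
Level of each gene in CPM per kb of exon on a log axis, with the mean (point) and the lowest and highest of 4 libraries (bar) in each group. Genes are ordered by naïve INPUT, from Hsp90ab1 at 475 to Hspb1 at 1.29 CPM per kb. IP lies below INPUT for every gene, and the gap is narrow for Cirbp.

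The first comparison asks whether the swim left a heat or cold response in astrocyte ribosome-bound RNA. None of the genes passed the test. Genes that averaged above 1 CPM were fitted in limma as log2(CPM + 0.1), with Benjamini-Hochberg adjustment over these 12501 genes. Of the 10 genes, 8 were tested and 0 had an adjusted p under 0.05, against 0.44% of all genes. With an unadjusted p under 0.05 there were also 0 of the 8, against 8.27% of all genes, and limma-voom called 0. Hspa1b and Hspb1 were below the filter in IP and have an exact permutation test alone. With 4 libraries against 4, the smallest p of that two-sided test is 0.029. The labels do not say which libraries came from the same mouse, and p-values measure the spread between these libraries.

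The inducible Hsp70 genes, which are at low levels in unstressed cells, were at low levels in all IP libraries. Hspa1a had 2.50, 1.30, 1.41 and 0.736 CPM in naïve IP (replicates 2, 8, 11 and 13) and 1.61, 0.838, 0.822 and 1.25 CPM in stress IP (replicates 4, 5, 6 and 15). The highest and the lowest of these 8 values were both from naïve mice. Naïve IP averaged 1.49 ± 0.736 CPM (SD, n = 4) and stress IP 1.13 ± 0.374 CPM, a log2 fold change of −0.30 ± 0.35 (SE) with an adjusted p of 0.87 in limma. Its 95% confidence interval ran from 0.480-fold to 1.37-fold, so that an increase above 1.37-fold was outside it. Without naïve replicate 2, the highest value, the log2 fold change was −0.03, and without naïve replicate 13, the lowest, it was −0.57. Hspa1b had 0.930, 0.985, 1.10 and 1.01 CPM in naïve IP and 1.16, 0.789, 0.456 and 1.21 CPM in stress IP. The stress values lay on both sides of the naïve values, with means of 1.00 ± 0.0693 and 0.903 ± 0.351 CPM (two-sided exact permutation p = 0.63, n = 4).

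Hspa8, the Hsp70 that cells make at all times, was among the most abundant of the genes, and its IP means differed by less than the spread of the libraries. It had 834, 801, 634 and 713 CPM in naïve IP and 865, 914, 607 and 662 CPM in stress IP. The stress group held both the highest and the lowest values. The log2 fold change was 0.02 ± 0.13 (SE; adjusted p = 0.98 in limma), with a 95% interval from 0.832-fold to 1.23-fold. The high values of both groups were those of the libraries with high Xist, the RNA made from the inactive X chromosome of females (801 to 914 CPM against 607 to 713 CPM in the others), and the log2 difference between stress and naïve means was 0.12 among the former and −0.09 among the latter.

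The partners of Hsp70 showed no called change in IP. The Hsp40 co-chaperone Dnajb1 had 12.6, 13.1, 14.6 and 13.8 CPM in naïve IP and 10.5, 12.7, 10.7 and 13.7 CPM in stress IP. Stress replicates 4 and 6 were below all naïve libraries and stress replicates 5 and 15 were among them. Its log2 fold change of −0.19 ± 0.11 (SE) had an unadjusted p of 0.11 and an adjusted p of 0.69 in limma, and the interval ran from 0.747-fold to 1.03-fold. Without stress replicate 15 the value was −0.26, with an unadjusted p of 0.032 and an adjusted p of 0.33 in limma. Hsph1, the Hsp110 that recharges Hsp70 and the one of the 6 matched genes with a 3-unit heat shock element, had 47.9, 54.7, 53.1 and 54.2 CPM in naïve IP and 54.7, 52.0, 52.0 and 57.4 CPM in stress IP. These groups overlapped almost fully, and the log2 fold change was 0.04 ± 0.07 (SE; adjusted p = 0.91 in limma; interval 0.932-fold to 1.14-fold).

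Of the Hsp90 genes, the inducible Hsp90aa1 did not separate the IP groups and the constitutive Hsp90ab1 did, by a small amount in the lower direction. Hsp90aa1 had 143, 133, 109 and 119 CPM in naïve IP and 144, 134, 131 and 124 CPM in stress IP. The log2 fold change was 0.09 ± 0.08 (SE; adjusted p = 0.82 in limma), and the interval ended at 1.21-fold. Hsp90ab1 had 861, 846, 827 and 857 CPM in naïve IP and 812, 822, 786 and 806 CPM in stress IP. All 4 stress libraries were below all 4 naïve libraries, which gives the smallest two-sided exact permutation p of 0.029 for n = 4 against 4. Naïve IP averaged 848 ± 15.5 CPM and stress IP 807 ± 15.1 CPM, 4.87% lower. The fit across all genes did not call it, with a log2 fold change of −0.07 ± 0.05 (SE; adjusted p = 0.75 in limma). Groups that do not overlap were found for 1 of the 10 genes and for 5% of the 12501 genes tested (lower in stress for 2.62%).

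The small heat shock gene Hspb1 was close to the limit of detection in IP, with 2 to 16 reads per library. It had 0.196, 0.269, 0.627 and 0.232 CPM in naïve IP and 0.357, 0.0986, 0.137 and 0.121 CPM in stress IP. The groups overlapped through stress replicate 4 (exact permutation p = 0.17, n = 4).

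The cold-inducible genes were slightly higher on average in stress IP, within the spread of the libraries. Cirbp had 21.4, 24.0, 30.2 and 26.0 CPM in naïve IP and 25.1, 25.2, 37.4 and 29.6 CPM in stress IP. Stress replicate 6 was the highest of the 8 libraries, and the other 3 stress libraries lay within the naïve range. The log2 fold change was 0.20 ± 0.14 (SE; adjusted p = 0.76 in limma; interval 0.933-fold to 1.41-fold), and it was 0.08 without stress replicate 6 and 0.28 without naïve replicate 11. With a weight for each library, from limma's array weights, it was 0.29 (unadjusted p = 0.047, adjusted p = 0.42 in limma). The libraries with high Xist had 21.4 to 25.2 CPM of Cirbp and the others had 26.0 to 37.4 CPM, and within these sets the stress and naïve means differed by 0.15 and 0.25 on the log2 scale. Rbm3 had 3.67, 5.11, 4.15 and 3.60 CPM in naïve IP and 4.64, 5.23, 3.51 and 5.10 CPM in stress IP. The lowest and the highest value were both from stressed mice, and the log2 fold change was 0.15 ± 0.17 (SE; adjusted p = 0.86 in limma; interval 0.862-fold to 1.44-fold).

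Summed levels of the markers of other cells differed in both directions between the IP groups. By gene, most of these lists had a median log2 fold change below 0. The summed oligodendrocyte markers averaged 151 CPM in naïve and 159 CPM in stress IP. Those of microglia averaged 20.7 and 19.9 CPM, and those of endothelial cells 10.9 and 8.05 CPM. The median log2 fold change was −0.09 over 5 oligodendrocyte markers (−0.52 to 0.15) and −0.20 over 4 microglia markers (−0.44 to 0.10). It was −0.43 over the 2 endothelial markers tested, and the 1 red blood cell marker tested had 0.35. None of these markers was called. The summed neuron markers were 628 to 797 CPM in naïve and 493 to 728 CPM in stress IP, and all 7 markers had log2 fold changes below 0 (−0.33 to −0.06, median −0.25), none of them called. Their part in the values of Dnajb1 or any other gene was not tested.

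**Figure D2:**
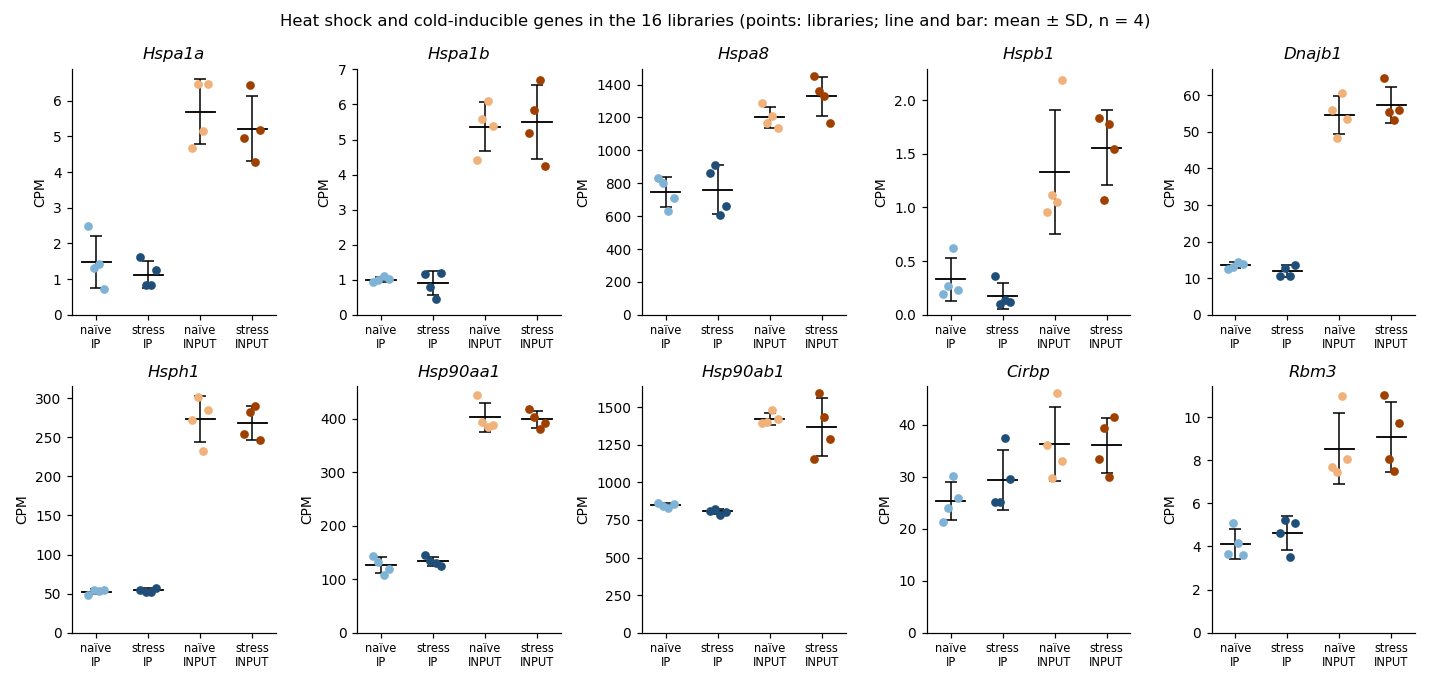
CPM of each gene in every library (points), with the mean and SD of the 4 libraries of a group (line and bar), on axes that start at 0. Naïve and stress overlap in every panel and fraction except Hsp90ab1 in IP, where 4 stress libraries at 786 to 822 CPM lie below 4 naïve libraries at 827 to 861 CPM.

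The second comparison asks the same of the whole cortex, where RNA of neurons, oligodendrocytes and other cells is included. Of the 10 genes, all were tested in INPUT and 0 had an adjusted p under 0.05 in limma, against 0.0442% of 13577 genes. None had an unadjusted p under 0.05, against 5.03% of all genes, limma-voom called 0, and no gene had groups that did not overlap, against 2.87%. In bulk samples such as these, a change in the number of cells of a type and a change in RNA per cell cannot be told apart.

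Hspa8 came closest to the threshold in INPUT. It had 1287, 1169, 1212 and 1137 CPM in naïve INPUT (replicates 3, 7, 14 and 16) and 1455, 1359, 1331 and 1167 CPM in stress INPUT (replicates 1, 9, 10 and 12). In 3 of the 4 stress libraries it was above all naïve libraries, and stress replicate 12 lay among them. Naïve INPUT averaged 1201 ± 64.6 CPM and stress INPUT 1328 ± 120 CPM, 10.6% higher, with a log2 fold change of 0.14 ± 0.07 (SE), an unadjusted p of 0.053 and an adjusted p of 0.98 in limma (exact permutation p = 0.14, n = 4). Without stress replicate 12 the value was 0.20, with an unadjusted p of 0.0059 and an adjusted p of 0.91 in limma.

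The inducible genes, which a heat response raises most, were not called in INPUT. Hspa1a had 4.69, 6.48, 5.14 and 6.46 CPM in naïve INPUT and 4.94, 6.45, 4.29 and 5.19 CPM after stress, with a log2 fold change of −0.12 ± 0.16 (SE; adjusted p = 0.99 in limma; interval 0.723-fold to 1.16-fold). Hspa1b had 4.40, 5.59, 6.08 and 5.39 CPM in naïve INPUT and 5.19, 5.85, 6.71 and 4.25 CPM after stress, with a log2 fold change of 0.02 ± 0.16 (SE; adjusted p = 1.0 in limma; interval 0.801-fold to 1.29-fold). The groups overlapped in both genes. Hspb1 had 0.960, 1.12, 1.05 and 2.19 CPM in naïve INPUT and 1.83, 1.07, 1.78 and 1.54 CPM after stress. Naïve replicate 16 was above all 4 stress libraries, and the log2 fold change of 0.26 ± 0.28 (SE; adjusted p = 0.99 in limma) had the widest interval, 0.785-fold to 1.83-fold.

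In naïve INPUT Dnajb1 had 55.9, 48.2, 60.7 and 53.5 CPM, and after stress 64.6, 55.4, 53.3 and 56.1 CPM (log2 fold change 0.07 ± 0.08, SE). The other chaperone genes differed by less. Hsph1 ranged from 233 to 302 CPM in naïve INPUT and from 247 to 290.3 CPM after stress, with a log2 fold change of −0.02 ± 0.08 (SE), and Hsp90aa1 from 384 to 443 and from 380.2 to 418 CPM, with −0.01 ± 0.06 (SE). Hsp90ab1 had 1392, 1400.4, 1482 and 1421 CPM in naïve INPUT and 1154, 1598, 1433 and 1291 CPM after stress. Here the stress libraries lay on both sides of the naïve ones, and the log2 fold change was −0.07 ± 0.08 (SE), so that the groups that were separate in IP were mixed in INPUT. Cirbp ranged from 29.8 to 46.1 CPM in naïve INPUT and from 29.99 to 41.4 CPM after stress (log2 fold change −0.00 ± 0.13, SE). Rbm3 had 7.68, 7.48, 11.0 and 8.04 CPM in naïve INPUT and 11.0, 8.07, 7.49 and 9.71 CPM after stress, a log2 fold change of 0.09 ± 0.15 (SE; interval 0.846-fold to 1.33-fold). The adjusted p of these 6 genes was 0.99 to 1.0 in limma.

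**Figure D3:**
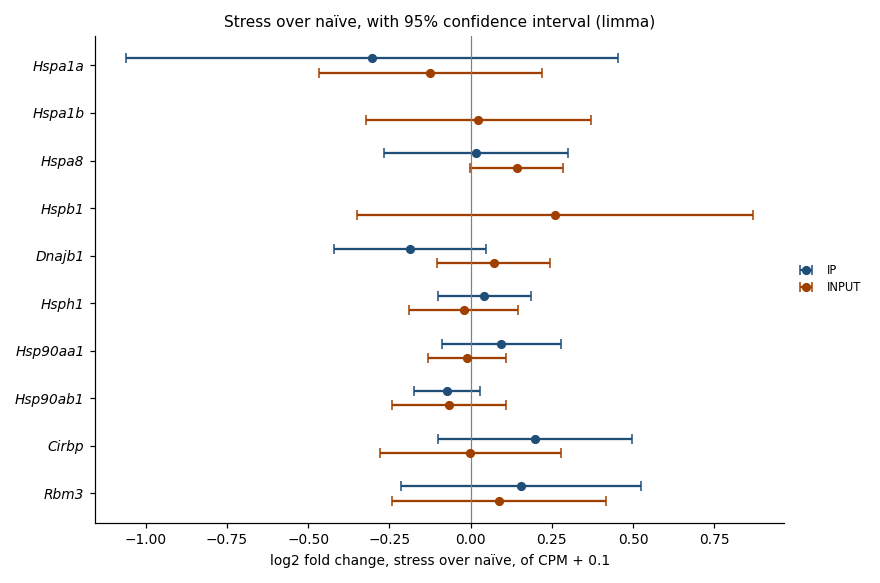
Log2 fold change of stress over naïve for each gene (points) with its 95% confidence interval (bars) in IP and in INPUT. No called difference is among them, and Hspa1b and Hspb1 have no IP value because they were below the filter. Intervals are narrow for Hsp90ab1 in IP (−0.17 to 0.03) and wide for Hspa1a in IP (−1.06 to 0.45).

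The difference between the stress effects of IP and INPUT was tested over all 16 libraries, taken as independent because the labels do not pair them. Of the 10 genes, 9 were tested and 0 called by limma, against 0.0225% of 13341 genes. None had an unadjusted p under 0.05, against 4.71%, and limma-voom called 0. Dnajb1 had the smallest p, with a log2 difference of −0.26 ± 0.13 (SE; unadjusted p = 0.071, adjusted p = 1.0 in limma), the fold change being −0.19 in IP and 0.07 in INPUT. Cirbp differed by 0.20 ± 0.21, Hspa8 by −0.12 ± 0.16, Hsp90aa1 by 0.11 ± 0.11 and Hsp90ab1 by −0.01 ± 0.10 (SE).

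IP over INPUT compares the share of each mRNA among astrocyte ribosome-bound RNA with its share in the whole tissue. The heat shock genes were mostly lower in IP, and the cold-inducible Cirbp was close to the middle of all genes. In naïve mice 9 genes were tested and all 9 were called lower in IP, which has to be read against 64% of 13339 genes called lower (23.7% higher) and a median log2 ratio of −0.64 over all genes. When libraries are instead rescaled so that the median gene does not differ (median-ratio scaling), 6 of the 9 were called lower, against 42.3% of all genes lower and 42% higher. In stressed mice 8 of 9 were called lower, against 62.5% of 13333 genes lower and 23.6% higher (median −0.63), and 5 of 9 under median-ratio scaling, against 41.3% lower and 41% higher. Hspa1b averaged 1.00 CPM in naïve and 0.903 CPM in stress IP, and in stressed mice it passed the filter through INPUT alone, so that its place below INPUT was partly fixed by the filter. Among the 8 genes above 1 CPM in both fractions of stressed mice, 7 were called lower, and 4 under median-ratio scaling. Stressed and naïve values rest on different libraries.

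Among the genes tested, those that stood lowest were the inducible Hsp70 genes and their Hsp110 and Hsp40 partners. Hspb1 was below the filter and was not tested. In naïve mice the IP level of Hsph1 was 52.5 ± 3.11 CPM (SD, n = 4) against 273 ± 29.3 CPM for INPUT, which is 19.2% of the INPUT level and a log2 ratio of −2.37 ± 0.08 (SE; adjusted p = 2.6e-12 in limma). Hspa1b stood at 18.7% of INPUT (log2 ratio −2.30 ± 0.17), Dnajb1 at 24.8% (interval −2.18 to −1.82) and Hspa1a at 26.1% (−1.97 ± 0.28). The highest IP library was below the lowest INPUT library for each of these genes in both conditions, as it was for 61.4% of all genes in naïve and 59% in stressed mice. In stressed mice the log2 ratios were −2.31 for Hsph1, −2.54 for Hspa1b, −2.26 for Dnajb1 and −2.15 for Hspa1a. Many other genes were as low: in naïve mice Hsph1 lay at percentile 14.9 of the log2 ratios of all genes tested. Hspa1b lay at percentile 15.8, Dnajb1 at 19.1 and Hspa1a at 19.5. Under median-ratio scaling these genes were still called lower, with log2 ratios of −1.36 to −1.73 in naïve mice. Hspb1 stood at 24.9% of the INPUT mean in naïve and 11.5% in stressed mice, with no overlap (exact permutation p = 0.029 in each, n = 4). Its IP libraries held 4 to 16 reads in naïve and 2 to 8 in stressed mice, too few to place it among the other genes.

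The Hsp90 genes parted. The inducible Hsp90aa1 stood at 31.2% of INPUT in naïve mice (log2 ratio −1.68 ± 0.08, SE) and at 33.5% in stressed mice (−1.58 ± 0.06), and was still called under median-ratio scaling (−1.04 and −0.95). Hsp90ab1 stood at 59.5% (log2 ratio −0.75 ± 0.05) and 58.9% (−0.75 ± 0.09), close to the median of all genes. Hspa8 was much like it, at 62.1% (−0.69 ± 0.08) and 57.4% (−0.82 ± 0.12). Neither Hsp90ab1 nor Hspa8 was called under median-ratio scaling, with log2 ratios of −0.11 and −0.05 in naïve and −0.12 and −0.19 in stressed mice (adjusted p from 0.085 to 0.51 in limma).

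Of the cold-inducible genes, Rbm3 stood at 48.4% of INPUT in naïve mice (log2 ratio −1.03 ± 0.16, SE) and at 50.9% in stressed mice (−0.96 ± 0.17). Under median-ratio scaling its log2 ratio was −0.40 in naïve mice (adjusted p = 0.032 in limma) and −0.34 in stressed mice (adjusted p = 0.072 in limma). Cirbp stood at 69.9% in naïve mice, a log2 ratio of −0.51 ± 0.13 (SE; adjusted p = 0.0025 in limma), though the libraries overlapped (exact permutation p = 0.057, n = 4). In stressed mice it stood at 81.2%, a log2 ratio of −0.31 ± 0.14 (SE; adjusted p = 0.053 in limma). Relative to the median gene it was on the other side: under median-ratio scaling the log2 ratio was 0.13 in naïve mice (adjusted p = 0.38 in limma) and 0.32 in stressed mice (adjusted p = 0.052 in limma). The stressed value depended on single libraries. It was called without stress IP replicate 6 (−0.43, adjusted p = 0.0063 in limma) and without stress INPUT replicate 10 (−0.39, adjusted p = 0.022 in limma). The markers of neurons, oligodendrocytes, microglia and endothelial cells were called lower in IP for every gene (7 of 7, 5 of 5, 5 of 5 and 5 of 5 in naïve mice), and the astrocyte markers higher (7 of 7). The 1 red blood cell marker tested was also called higher in IP, with a log2 ratio of 2.59 in naïve and 2.27 in stressed mice.

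**Figure D4:**
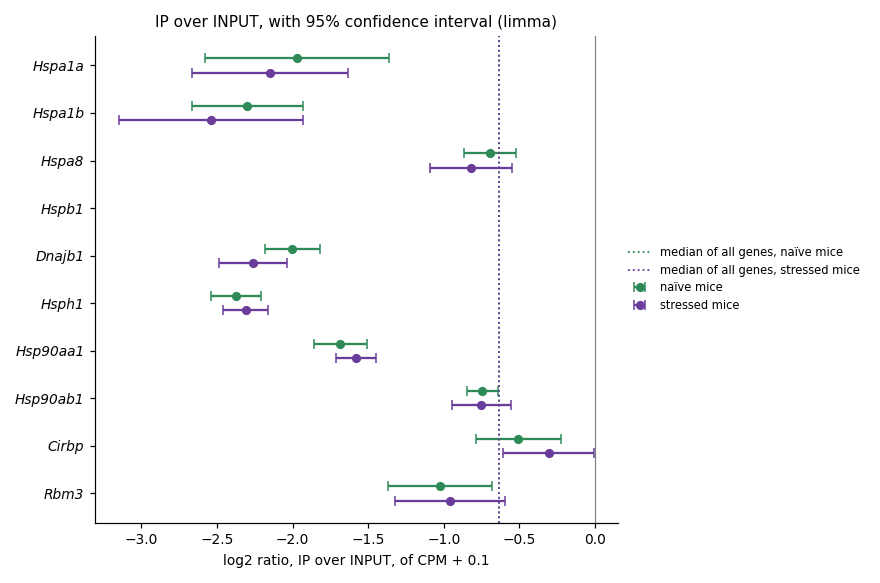
Log2 ratio of IP over INPUT for each gene (points) with its 95% confidence interval (bars), in naïve and in stressed mice, with the median of all genes as dotted lines (−0.64 and −0.63, nearly on top of each other). Hspa1a, Hspa1b, Dnajb1, Hsph1 and Hsp90aa1 lie to the left of the median, while Hspa8, Hsp90ab1 and Cirbp lie near it. The former are at percentiles 14.9 to 23.6 of all genes tested in naïve mice and 14.0 to 25.7 in stressed mice.

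The genes whose profile over the 16 libraries was most like that of each gene were found by the smallest root mean square difference of the centered log2(CPM + 0.1) values. Hsp90ab1 was closest to Hypk (0.055), Hsph1 to Ogfrl1 (0.073), Hsp90aa1 to Ube2w (0.081), Dnajb1 to Abhd17a (0.085) and Hspa8 to Tubgcp5 (0.099). Cirbp was closest to Fxyd6 (0.16), Rbm3 to Nudt16 (0.16), Hspa1b to Rnu11 (0.18) and Hspa1a to Sync (0.26). The profiles include the difference between IP and INPUT levels, and its part in these distances was not tested. Hspb1 averaged below the filter of 1 CPM over the 16 libraries and was left out. None of the other genes described here was the closest gene of another.

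Other chaperone, protein-folding and cold-linked genes, with the heat shock factors, were followed in 9 lists with 97 genes. In IP 88 were tested and 0 called by limma, with 6 at an unadjusted p under 0.05, which is 6.82% against 8.27% of all genes. In INPUT 90 were tested and 0 called, with 4 at an unadjusted p under 0.05, which is 4.44% against 5.03%. The median log2 fold change over the lists was 0.01 in IP and 0.01 in INPUT, against −0.00 over all genes in each. By list, the median in IP was −0.06 for the heat shock factors (4 tested), 0.06 for the other Hsp70 and Hsp110 chaperones (8), 0.02 for the other Hsp40 co-chaperones (15) and 0.00 for the Hsp90 relatives and co-chaperones (12). It was −0.06 for the Hsp70 exchange factors (8), −0.05 for the other small heat shock proteins (4) and 0.06 for the chaperonins with the collagen chaperone (11). For the endoplasmic reticulum stress genes (23) it was 0.03, and for the cold-linked genes (8) −0.01. In INPUT the same medians lay between −0.00 and 0.05.

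A few genes of these lists stood out by their size. Fkbp5, an Hsp90 co-chaperone of the glucocorticoid receptor whose gene glucocorticoids induce, had 5.31 to 39.8 CPM in naïve and 20.1 to 71.8 CPM in stress IP, a log2 fold change of 1.67 ± 0.55 (SE; adjusted p = 0.40 in limma). In INPUT it had 22.5 to 49.3 CPM in naïve and 43.7 to 62.7 CPM in stress libraries, a log2 fold change of 0.79 ± 0.20 (SE; adjusted p = 0.36 in limma). The highest naïve values were those of IP replicate 11 and INPUT replicate 14. Without the former the IP value was 2.31 (adjusted p = 0.0049 in limma), and without the latter the INPUT value was 1.04 (adjusted p = 0.0021 in limma). With all libraries weighted alike, the call in each fraction thus depended on 1 naïve library. In INPUT Fkbp5 was also called with every library kept and a weight for each, from limma's array weights (0.93, adjusted p = 0.023).

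Herpud1, which serves the removal of misfolded proteins from the endoplasmic reticulum, had 38.0 ± 9.33 CPM in naïve and 58.3 ± 4.56 CPM in stress IP, with no overlap. Its log2 fold change of 0.64 ± 0.14 (SE) had an adjusted p of 0.086 in limma, and without naïve replicate 11 it was 0.80 (adjusted p = 0.00070 in limma). It was called also with a weight for each library (limma's array weights, adjusted p = 0.0082 in limma) and in the model of all 16 libraries (adjusted p = 0.012 in limma). In INPUT the log2 fold change of Herpud1 was 0.07 ± 0.08 (SE). The difference of its stress effects, IP minus INPUT, was 0.57 ± 0.17 (SE; adjusted p = 0.68 in limma), and without naïve IP replicate 11 it was 0.72 (adjusted p = 0.019 in limma). Other genes of the unfolded protein response did not share its size: the chaperone Hspa5 had 0.20 ± 0.11 and the sensor Ern1 −0.20 ± 0.09 in IP (adjusted p = 0.69 and 0.58 in limma), and the transcription factor Atf4 had 0.04 ± 0.11 in IP (adjusted p = 0.95 in limma) and 0.15 ± 0.07 in INPUT (adjusted p = 0.97 in limma).

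Hsf1 itself had 17.1 ± 1.43 CPM in naïve and 16.0 ± 2.29 CPM in stress IP, a log2 fold change of −0.10 ± 0.12 (SE; adjusted p = 0.87 in limma). The heat shock factor Hsf4, near the filter in IP, had 1.46 ± 0.465 CPM in naïve and 0.659 ± 0.195 CPM in stress IP, with no overlap (log2 fold change −1.03 ± 0.30; adjusted p = 0.28 in limma). Only its naïve mean was above 1 CPM, so that it passed the filter through the naïve libraries, and its size depended on the pseudocount, at −0.56 with a pseudocount of 1 CPM. Among the settings tried, it was called only in the model of all 16 libraries (adjusted p = 0.011 in limma), as was Hspa12a, a distant relative of Hsp70, with −0.23 ± 0.07 (adjusted p = 0.34 in limma on the IP libraries and 0.032 in that model). Both were far lower in IP than in INPUT. The Hsp40 gene Dnajb5 had 116 ± 12.1 CPM in naïve INPUT and 151 ± 7.05 CPM after stress, with no overlap and a log2 fold change of 0.39 ± 0.07 (SE; adjusted p = 0.10 in limma, and 0.027 with array weights). In the difference between the stress effects of IP and INPUT, 0 of the 90 listed genes were called by limma and 4 had an unadjusted p under 0.05 (4.44% against 4.71% of all genes). Srsf5, a splicing factor of the cold-linked list, had 64.4 ± 3.65 CPM in naïve and 77.6 ± 10.4 CPM in stress IP (log2 fold change 0.26 ± 0.09; adjusted p = 0.44 in limma).

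The other genes with the smallest p of their lists had small log2 fold changes, none of them called. In IP these were 0.10 for Dnajb4, 0.07 for Dnaja3, −0.10 for the kinase adaptor Cdc37, −0.19 for the exchange factor Hspbp1, −0.10 for Bag6, 0.25 for Hspb11, −0.18 for Hspb6, −0.22 for the collagen chaperone Serpinh1, 0.08 for the chaperonin subunit Cct3 and −0.09 for Csdc2 (adjusted p from 0.66 to 0.82 in limma). In INPUT they were −0.11 for Hsf2, 0.08 for Hsbp1, 0.16 for Hspa14, −0.28 for Hspa12b, 0.13 for Dnaja3, 0.11 for the mitochondrial Hsp90 Trap1, 0.12 for Bag5, 0.17 for Bag2, −0.19 for the lens crystallin Cryab, 0.15 for Hspb8, −0.19 for Serpinh1, 0.08 for Hspe1, −0.16 for Edem1, 0.11 for Ybx3 and −0.07 for Rtn3 (adjusted p from 0.98 to 0.99 in limma). The groups of Hspb11 in IP and of Dnaja3, Bag5, Serpinh1 and Edem1 in INPUT did not overlap. Among all genes tested this held for 5% in IP and 2.87% in INPUT. The named genes were picked for their small p, which favors groups that do not overlap, so that these shares are not a like comparison.

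**Figure D5:**
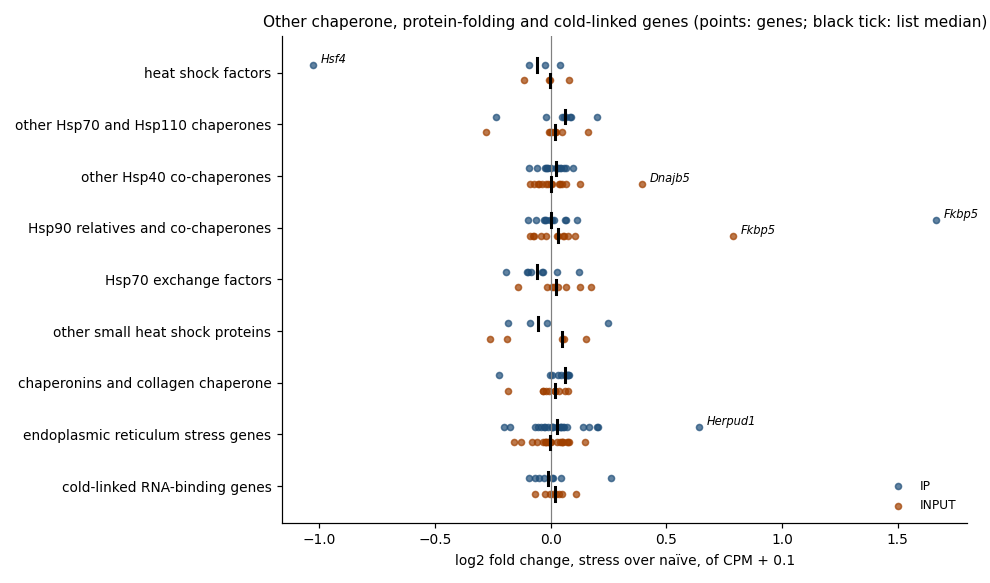
Log2 fold change of stress over naïve for the genes of 9 other lists (points), in IP and in INPUT, with the median of each list (black tick). All list medians lie between −0.06 and 0.06, and Fkbp5 in IP (1.67) and Hsf4 in IP (−1.03) lie farthest from 0, the latter at about 1 CPM, near the filter. A gene in several lists is drawn in each.

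In IP over INPUT the other lists were not uniformly low. In naïve mice 19 of their 90 tested genes were called higher in IP and 58 lower, or 21.1% and 64.4%, close to the 23.7% and 64% of all genes. In stressed mice 20 were higher and 55 lower, or 22.2% and 61.1%, close to the 23.6% and 62.5% of all genes. The median log2 ratios were −0.46 and −0.42, against −0.64 and −0.63 over all genes. Under median-ratio scaling the split turned: 48 were called higher and 27 lower in naïve mice (all genes 42% and 42.3%), and 45 higher and 26 lower in stressed mice (41% and 41.3%). In naïve mice the 4 tested genes of the heat shock factor list (Hsf1, Hsf2, Hsf4 and Hsbp1) were called lower (median −0.75). So were 6 of 8 exchange factors (median −1.32), against 64% of all genes. Under median-ratio scaling these counts were 2 of 4 and 5 of 8, against 42.3%. The small heat shock gene Hspb8 and its exchange partner Bag3, which act together in selective autophagy, were the highest: Hspb8 had 78.4 ± 6.29 CPM in IP and 12.0 ± 1.57 CPM in INPUT (log2 ratio 2.70 ± 0.10, SE), and Bag3 had 42.3 ± 1.71 and 7.04 ± 1.23 CPM (2.59 ± 0.12, SE). They were at 77.6 ± 6.46 and 40.1 ± 5.20 CPM in stress IP. At the low end stood Hspa12a, with 22.8 ± 1.14 CPM in naïve IP and 303 ± 14.8 CPM in INPUT (log2 ratio −3.73 ± 0.06, SE), and in stressed mice Hsf4, with 0.659 ± 0.195 and 13.6 ± 0.717 CPM (−4.20 ± 0.19, SE). Hsf4 passed that filter through INPUT alone, and its log2 ratio was −3.14 with a pseudocount of 1 CPM and −3.62 under median-ratio scaling. Hspb3 was lower still, with 0.0975 ± 0.0860 CPM in naïve IP against 2.87 ± 0.454 CPM in INPUT, at so few reads that no fold is given.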

How the data were processed

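RNA sequencing of 16 libraries from mouse somatosensory cortex was used, with 4 IP and 4 INPUT libraries from naïve and as many of each from stressed mice. Per the submitters' processing notes and the paper's methods, the authors aligned paired reads of 69 bases to mm10 with STAR, counted uniquely mapped reads on RefSeq genes with HTSeq, and used edgeR and limma. The deposited tables, 1 a library, hold log2 CPM values for 24060 genes, scaled to its own total, with a floor of −6.40 and no correction for gene length. A long gene therefore has more CPM at the same number of transcripts, and levels between genes were compared per kb of exon. The floor was removed, and 100% of the values then gave whole reads (within 0.05 of a read). Libraries held 16392876 to 25814364 reads on genes (median 21167241), and read counts after PCR cover counting error only.

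Comparisons were fitted in R 4.3.3 with limma 3.58.1 (variance trend), using log2(CPM + 0.1) of the genes that averaged more than 1 CPM across the libraries involved. A gene was called at a Benjamini-Hochberg adjusted p under 0.05, and the exact permutation test of a single gene, two-sided, ran over 70 labelings. The fit was tested on simulated data in which only genes well above the filter were changed. That test does not cover genes near the filter or small changes. Alternatives were other pseudocounts, filters, scaling and weights, limma-voom with TMM factors, no variance trend, one model of all libraries, Xist as a covariate and each library left out. The values of libraries split by Xist were added after seeing the data. Members and lists were chosen with earlier results of these data known. Named are all 10 genes, listed genes with an adjusted p under 0.05 or otherwise among the 2 smallest p of a list and fraction, the 2 highest and lowest IP over INPUT ratios of the lists, and the most alike gene of each member. Markers served to check the fractions. Red blood cell markers (5 genes, 1 tested) summed to 11.0 to 21.5 CPM in IP and 1.30 to 6.84 in INPUT. Uniqueness was counted on GENCODE M21 transcripts, promoters came from RefSeq, and Python 3.11.15 was used with NumPy 2.4.6, pandas 2.3.3 and matplotlib 3.10.9. Protein sequences were not used here.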

Additional observations from a re-analysis of the deposited data

Results flagged for a closer look

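In 5 of the 40 groups of 4 libraries, 1 library stood apart from the other 3 by a gap above Dixon's 95% critical value, where chance gives about 2 (1 in 20). Of the heat shock genes, Hspb1 had 3 of these groups. It was 0.627 CPM in naïve IP replicate 11 against 0.196 to 0.269 CPM in the other 3, 0.357 CPM in stress IP replicate 4 against 0.0986 to 0.137 CPM, and 2.19 CPM in naïve INPUT replicate 16 against 0.960 to 1.12 CPM. Hsp90aa1 was 443 CPM in naïve INPUT replicate 3 against 384 to 394 CPM, and Rbm3 was 11.0 CPM in naïve INPUT replicate 14 against 7.48 to 8.04 CPM.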

How the results depend on the processing

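No paired analysis was possible because each library number from 1 to 16 is used once and the labels do not say which IP and INPUT libraries share a mouse. In the stress comparisons of IP and of INPUT and in the difference between them, 0 of the 10 genes were called under every alternative and with every library left out. The number of all genes called in IP was 55, and 19 without variance trend, 143 with array weights and 124 with all libraries in one model. Each library of this comparison moved it when left out, over a range of 17 to 122: to 18, 24, 122 and 17 without naïve IP replicates 2, 8, 11 and 13, and to 24, 22, 23 and 101 without stress IP replicates 4, 5, 6 and 15. In INPUT it was 6, and 11 under median-ratio scaling, 50 with array weights, 0 without variance trend and 2 with all libraries in one model, over a range of 1 to 32 with a library left out: 1, 2, 32 and 1 without naïve INPUT replicates 3, 7, 14 and 16, and 1, 18, 2 and 1 without stress INPUT replicates 1, 9, 10 and 12. For the difference it was 3, and 19 with array weights, 28 without naïve IP replicate 11 and 5 without stress IP replicate 15, with 2 to 28 over all libraries left out. In IP over INPUT, 8 of the tested heat shock and cold-inducible genes were called in stressed mice, and 5 under median-ratio scaling and by limma-voom. Cirbp in naïve mice turned from −0.51 to 0.13 under median-ratio scaling and to 0.11 by limma-voom, as both scale to the middle of all genes. By limma-voom Hspa8 was −0.08 in naïve and −0.22 in stressed mice, Hsp90ab1 −0.15 and Rbm3 −0.35 in stressed mice, none called. The cause of the other moves was not tested.

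Depth limits Hspb1, Hspa1a and Hspa1b in IP, where libraries held 2 to 16, 17 to 51 and 10 to 30 reads of these genes. The 2 reads of the lowest Hspb1 library lie below the floor of 3 reads. The sex of each mouse is not in the labels, and with Xist as a covariate Cirbp in stressed mice was called lower in IP (−0.31, adjusted p = 0.0059 in limma).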

Other observations

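The libraries fell into clear sets of high and low Xist, 2 of each in every group (496 to 665 CPM against 0.121 to 0.456 CPM in IP, and 122 to 167 CPM against 0.0997 to 0.384 CPM in INPUT). This was noticed after the data were seen, and the following are values, given with no explanation. In IP, 3 of the heat shock and cold-inducible genes did not overlap between these sets, where 4.27% of 12501 genes did not. Hspa8 had 801 to 914 CPM in the 4 libraries with high Xist and 607 to 713 CPM in the 4 with low Xist, a log2 difference of 0.38 ± 0.07 (SE; adjusted p = 0.12 in limma). Hsp90aa1 had 133 to 144 CPM and 109 to 131 CPM (0.20 ± 0.06, SE; adjusted p = 0.51 in limma), and Cirbp had 21.4 to 25.2 CPM and 26.0 to 37.4 CPM (−0.35 ± 0.09, SE; adjusted p = 0.51 in limma). In INPUT all 10 genes overlapped between the sets, where 2.67% of 13577 genes did not, and the log2 differences were 0.08 for Hspa8, 0.05 for Hsp90aa1 and −0.23 for Cirbp. The difference between IP and INPUT in this respect was not tested.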
